A study of Mus musculus with 2 samples.

Results

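Stem-like and naive-like CD8+ T cells are described here in 2 single-cell libraries of leukocytes from mouse MC38 colon tumors. Members were picked from the raw UMI counts (unique molecular identifiers, 1 per captured transcript), as 349 cells of 3524 CD8+ T cells and of 20407 barcodes in all. The MWA library gave 186 of 1685 CD8+ T cells and the MWA plus TIGIT library 163 of 1839. A barcode with at least 200 genes and at most 10% mitochondrial UMIs counted as a CD8+ T cell when it held at least 2 UMIs of Cd3d, Cd3e and Cd3g, at least 1 of Cd8a and Cd8b1, 0 of Cd4 and under 10 of C1qa, C1qb and C1qc. Such a cell was a member when it held under 2 UMIs of the cycling genes Mki67, Top2a and Birc5, under 3 of the interferon genes Ifit1, Ifit3, Rsad2 and Usp18, under 2 of the inhibitory receptors Pdcd1, Havcr2 and Lag3, under 2 of the granzymes Gzma, Gzmb and Gzmk, and at least 2 of Tcf7, Lef1 and Ccr7. All of these genes were used for the choice, so their values below are description only.

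MC38 cells were grown on both flanks of male C57BL/6 mice of 6 to 8 weeks, and the right tumor of both groups was treated by microwave ablation (MWA) at about 300 mm3. CD45+ cells were sorted from the left tumor, itself not ablated, 8 days later. The MWA plus TIGIT group also received an antibody against the inhibitory receptor TIGIT every 3 days from day 1 after ablation, 3 injections by the labels and 4 by the methods. Whether the MWA group of these libraries received a control antibody, and how many mice made up a library, are not given in the sources used here. With 1 library per group no test between groups was possible, so all intervals below are exact 95% intervals that cover counting error only, and a group and its library cannot be told apart.

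Naive CD8+ T cells circulate through lymph nodes, which they enter with the help of the chemokine receptor CCR7 and leave along a sphingosine 1-phosphate gradient. The transcription factors TCF-1 (Tcf7) and LEF-1 keep these cells, and the self-renewing pool of antigen-experienced cells in tumors and chronic infection, from differentiating into cytotoxic cells. In tumors the second kind is often called stem-like or progenitor exhausted, and is known as a pool that answers checkpoint blockade.

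Members held a median of 4883.5 UMIs per cell in the MWA library and 4764 in the MWA plus TIGIT library, and 976227 and 832081 UMIs in all. Other CD8+ T cells held medians of 4286 and 4020.5. Of 37 barcodes present in both libraries, 0 were members in the MWA library and 1 was a member in the MWA plus TIGIT library. Clear transcripts of another lineage were found in 4 of 186 and 8 of 163 members. In the MWA library these were 2 cells with Fscn1 and Ccl22 of mature dendritic cells, 1 with S100a8 and S100a9 and 1 with Cd79a and Ms4a1. In the MWA plus TIGIT library they were 5 with the gamma-delta T cell genes Trdc and Tcrg-C1, 2 with Foxp3 and 1 with S100a8 and S100a9. Summed macrophage markers stood at 853 and 996 CPM (summed UMIs as a part of 1000000 UMIs of the same cells) in members and at 1036 and 1191 CPM in the other CD8+ T cells.

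The members were a small and mixed minority of the CD8+ T cells. They made up 11.0% (9.58 to 12.6) of CD8+ T cells in the MWA library and 8.86% (7.60 to 10.3) in the MWA plus TIGIT library, a difference of -2.18 points (-4.21 to -0.159). As a share of CD8+ T cells without cycling, interferon, inhibitory receptor or granzyme transcripts above the limits, they were 28.6% of 651 cells and 31.5% of 518 cells, a difference of 2.90 points (-2.50 to 8.32). The order of the libraries thus depended on the denominator, and the second difference lay within counting error. Over the same CD8+ T cells the granzyme-positive class was 12.1 points larger (8.99 to 15.2) in the MWA plus TIGIT library, and the granzyme-low cells with under 2 UMIs of Tcf7, Lef1 and Ccr7 differed by -8.29 points (-11.1 to -5.46). Leaving out cells with a UMI of the T cell receptor segment Trav16, which were frequent in the other classes of the MWA plus TIGIT library, brought the difference in the member share to 0.0937 points (-2.18 to 2.40). Trav16 was singled out after its values were seen, and this left 155 members of 1390 CD8+ T cells in that library. The interval also included 0 with at least 3 UMIs of Tcf7, Lef1 and Ccr7 (-0.66, -2.22 to 0.90) and without Ccr7 in the rule (-0.77, -2.56 to 1.01). It did so too without barcodes over 5000 UMIs (-2.36, -4.83 to 0.07).

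**Figure D1:**
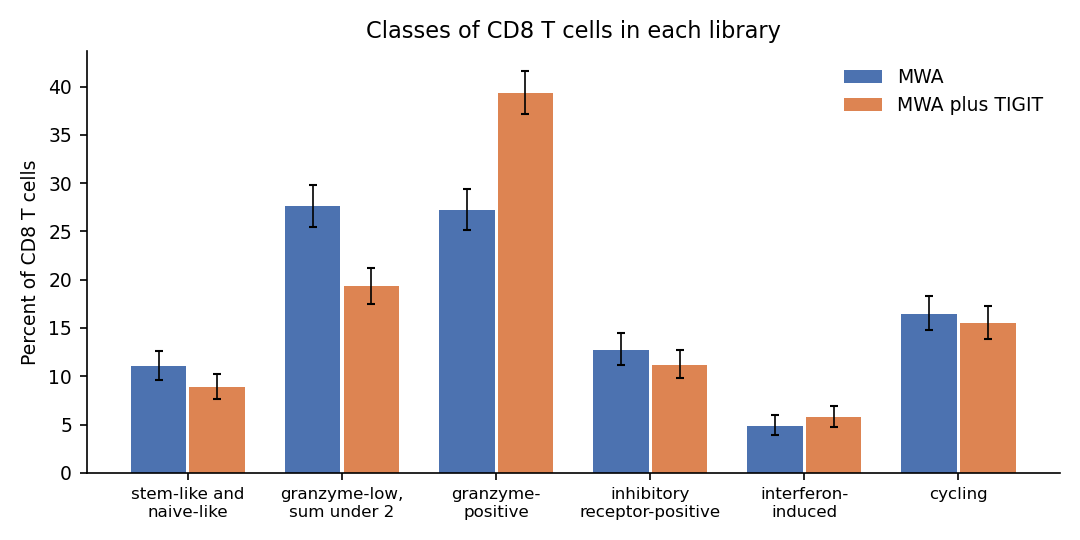
Share of CD8+ T cells (percent, vertical axis) in 6 classes of the same gates, in the MWA and the MWA plus TIGIT library, with exact binomial 95% intervals. Members stand at 11.0% and 8.86% with intervals that meet, whereas the granzyme-positive class stands at 27.2% and 39.4%.

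Tcf7, which encodes TCF-1 (chr11:52252371-52283014 on the minus strand, GRCm38), was the most widespread of the 3 genes of the rule. A Tcf7 UMI was found in 140 of 186 and 133 of 163 members. Lef1, its relative (chr3:131110471-131224356, plus strand), was found in 106 and 95 members, and the lymph node receptor gene Ccr7 (chr11:99144196-99155077, minus strand) in 100 and 77. All 3 genes were seen together in 28 and 31 members only, and 54 and 52 members qualified through a single gene, which was Ccr7 in 7 and 9 of them. Summed levels were 247 and 309 CPM for Tcf7, 191 and 200 CPM for Lef1 and 223 and 200 CPM for Ccr7, between 5.92 and 8.25 times those of the other CD8+ T cells, as the rule requires. Of the 218 Ccr7 UMIs in the MWA library, 39 came from the 2 cells with Fscn1 and Ccl22.

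Dapl1, a gene known from naive T cells (chr2:59484653-59505020, plus strand), was 6.69 and 5.96 times as high in members as in the other CD8+ T cells, with 137 and 165 CPM against 20.5 and 27.6 CPM. Il7r, the receptor chain for the survival cytokine IL-7 (chr15:9505788-9530176, minus strand), was 2.95 and 4.01 times as high, with 246 and 344 CPM against 83.4 and 85.8 CPM. S1pr1, the sphingosine 1-phosphate receptor for exit from lymphoid tissue (chr3:115710433-115715072, minus strand), was 2.51 and 2.37 times as high. Its activator Klf2 (chr8:72319033-72321656, plus strand) stood at 333 and 459 CPM, 1.94 and 3.01 times the level in the other CD8+ T cells. The genome organizer Satb1 (chr17:51736187-51833290, minus strand) was 1.95 and 3.72 times as high. Members thus held more of these single transcripts in both libraries, with counting intervals of each ratio above 1. Whole lists did not all follow. The median log2 ratio to the other CD8+ T cells was -0.03 and -0.21 over 6 lymph node homing and exit genes. It was -0.27 and -0.00 over 11 survival and cytokine receptor genes, with 1 at least 2 times higher in both libraries and 1 lower. It was 0.19 and 0.29 over 5 naive and stem cell transcription factors, and 1.89 and 1.84 over 2 naive cell genes. The 7 stem-like progenitor genes summed to 360 and 272 CPM in members against 661 and 611 CPM in the other CD8+ T cells. Only 1 of them, the chemokine gene Xcl1, reached the level to be compared, with log2 ratios of -0.98 and -1.56.

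Among 2181 genes compared with the other CD8+ T cells, rule genes left out, 9 (0.413%) were at least 2 times higher in members of both libraries and 74 (3.39%) at least 2 times lower, each with intervals away from 1. Since the members were chosen on measured genes of these same cells, these counts describe the choice and test nothing. Among the 9 were Dapl1, Cmah, A930005H10Rik, Il7r, Sidt1, S1pr1, Fam241a and Txk. Cmah, the enzyme that hydroxylates CMP-sialic acid, stood at 56.3 and 64.9 CPM against 7.11 and 12.4 CPM. Txk, a Tec-family kinase of the T cell receptor pathway, stood at 150 and 166 CPM against 72.4 and 77.3 CPM. The next genes were Satb1, Klf2, the surface protein gene Emb, the cytokine signalling inhibitor Socs3, the diacylglycerol kinase Dgka and the antisense RNA Kcnq1ot1, each under 2 times in at least 1 library.

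Most of the 15 genes furthest below the other CD8+ T cells belonged to DNA replication, chromosome packing and division, a program that the limit on Mki67, Top2a and Birc5 removes. They were the histone genes Hist1h3c, Hist1h2ab, Hist1h2af, Hist1h1b, Hist1h2ae, Hist1h2ap and Hist1h3f with Nusap1, Ube2c, Pclaf, Spc24, Stmn1, Tyms, Smc2 and Rgs16. Histone genes of the same family are near copies of each other, so their single values are uncertain. Rgs16, a regulator of G protein signalling seen in activated T cells, was the gene outside that program, at 18.4 and 18.0 CPM in members against 115 and 87.3 CPM in the other CD8+ T cells.

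Some genes of naive cells, and Il6ra of the cytokine receptor list, lay under the minimum level of 50 CPM and were also higher in members. Not every low gene of the naive list is given here. The ratio of members to other CD8+ T cells was 5.29 and 5.99 for Igfbp4, 4.81 and 6.46 for Nsg2, 5.78 and 7.65 for Rflnb and 5.22 and 3.57 for the IL-6 receptor gene Il6ra, each on 27 to 34 UMIs per library. Id3, a transcription regulator of memory and progenitor cells, stood at 48.1 and 61.3 CPM against 23.2 and 13.8 CPM. Of the stem-like progenitor genes, Slamf6, a surface receptor used to mark progenitor exhausted cells, had 25 and 33 UMIs, 1.91 and 2.44 times the other CD8+ T cells. Cxcr5, the follicle homing receptor, had 5 and 3 UMIs. Tox, a factor of exhausted cells, had 14 and 17 UMIs and was lower than in the other CD8+ T cells, at 0.300 and 0.513 times their level. Those cells include the inhibitory receptor-positive class, which the rule leaves out of the members, so this value describes the choice.

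**Figure D2:**
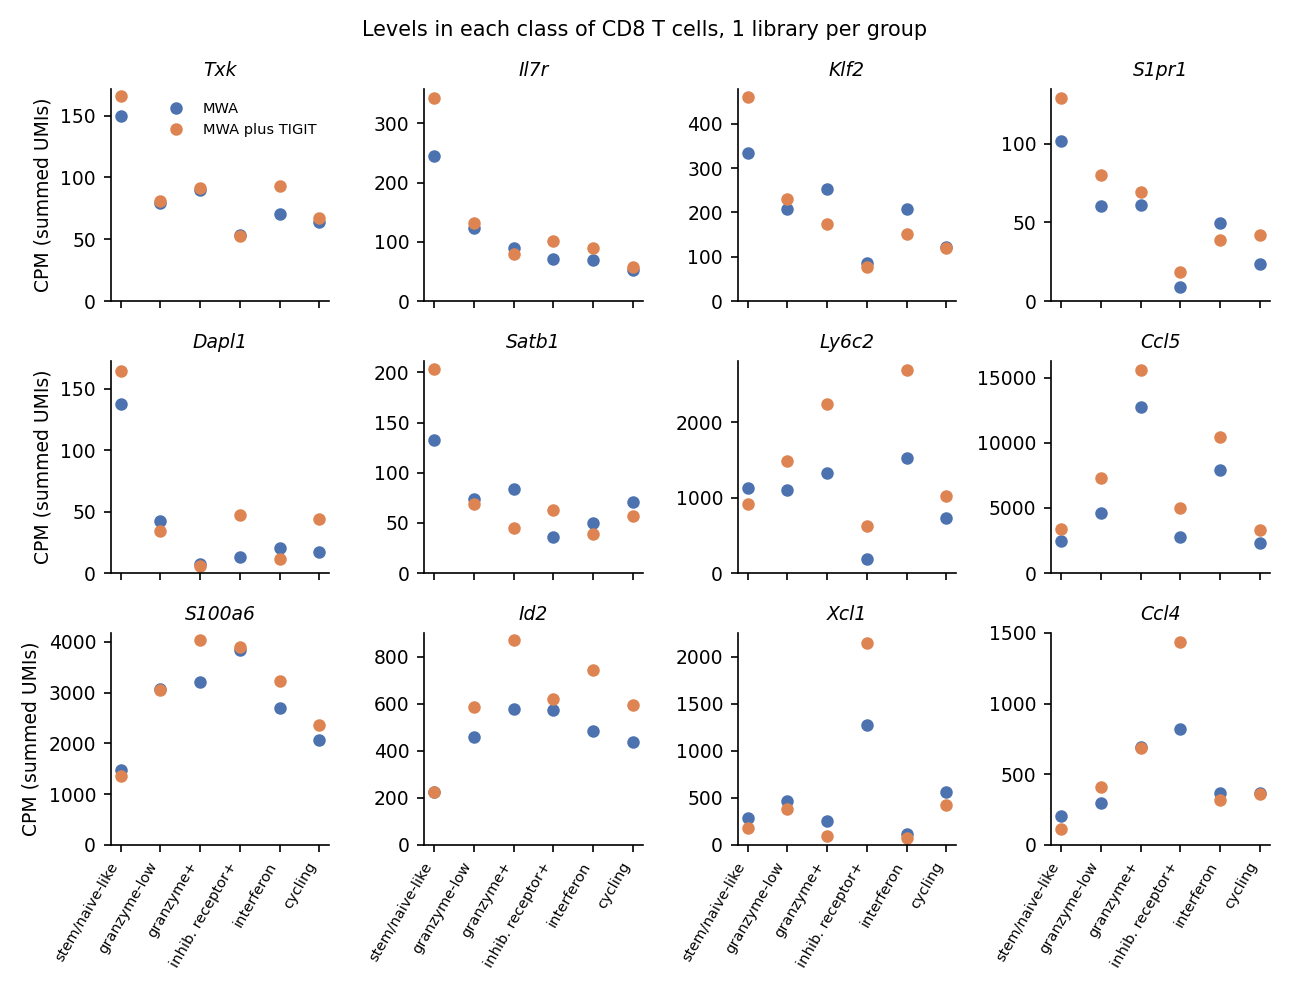
Summed level (CPM, linear axes from 0, a scale for each gene) of naive, exit, effector and antigen experience genes in members and in the 5 other CD8+ classes, 1 point per library and no error bars. Dapl1 is highest in members (137 and 165 CPM), while Ccl5 is 2469 and 3385 CPM in members and 12764 and 15648 CPM in granzyme-positive cells.

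By the transcripts below, the name naive-like covers only a minority of the members. Ccl5, a chemokine gene that antigen-experienced CD8+ T cells transcribe and naive cells hardly do (chr11:83525778-83530518, minus strand), reached 2469 and 3385 CPM in members, 0.437 and 0.382 times the level of the other CD8+ T cells. A Ccl5 UMI was present in 136 of 186 and 108 of 163 members, against 6 of 73 and 4 of 60 B cells. Nkg7, a protein of cytotoxic granules, stood at 1037 and 1034 CPM. At least 2 UMIs of Cd44, Cxcr3, Il2rb, Ccl5 and Nkg7 together, genes of antigen experience or cytotoxicity that the rule did not use, were held by 170 of 186 members (91.4%, 86.4 to 95.003) and 139 of 163 members (85.3%, 78.9 to 90.3), a difference of -6.12 points (-13.5 to 0.983). The same was true of 4 of 73 and 7 of 60 B cells, with medians of 1963 and 2649 UMIs. It was also true of 66 of 96 and 66 of 99 CD4+ T cells picked by similar gates. These asked for Cd4 in place of Cd8a and Cd8b1, and also for no UMI of Foxp3, a limit that the members did not have. After thinning to 1000 UMIs the shares were 59.7% and 58.9% of members and 1 of 70 and 0 of 60 B cells. Granzyme-low CD8+ T cells with a sum of Tcf7, Lef1 and Ccr7 under 2 stood higher. Their shares were 96.6% and 96.1% before thinning and 84.0% and 86.7% after it. Macrophages, barcodes with at least 10 C1q UMIs and no Cd3 UMI, stood at 49.9% and 54.3% before thinning and 5.09% and 4.40% after it. They held medians of 8595.5 and 10544 UMIs. The count of 0 among 60 B cells allows a share of up to 5%.

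The members without these transcripts, 16 and 24 cells, differed from the rest in several genes outside the split, but not in all. Their Il7r level was 692 (499 to 936) and 718 (550 to 920) CPM, against 216 and 300 CPM in the members with at least 2 UMIs. Klf2 stood at 808 and 625 CPM against 301 and 440 CPM, and S1pr1 at 264 and 220 CPM against 90.7 and 118 CPM. In the MWA plus TIGIT library the intervals overlapped for Klf2 (470 to 816 and 394 to 490) and S1pr1 (132 to 343 and 94.6 to 145). Tcf7, a gene of the rule, was also higher, at 445 and 440 CPM against 234 and 294 CPM. Its intervals overlapped in the MWA plus TIGIT library (311 to 604 and 256 to 335). Satb1 (214 and 220 against 127 and 201 CPM) and Txk (247 and 174 against 143 and 165 CPM) had overlapping intervals in both libraries. Bcl2 stood at 429 and 139 CPM against 313 and 381 CPM. Genes of effector and memory cells were lower in the same cells. The calcium-binding protein gene S100a6 stood at 231 and 394 CPM against 1558 and 1467 CPM, and Ly6c2, of the memory cell surface protein Ly6C, at 445 and 197 CPM against 1172 and 992 CPM. Xcl1 and Cxcr6, a receptor of tissue-resident cells, had 0 UMIs in these cells of either library, which allows up to 49.5 and 34.7 CPM. Ribosomal protein genes took 51.8% and 49.8% of their UMIs and 45.8% and 44.2% in the rest. These cells were smaller, with medians of 3653.5 and 3385 UMIs against 4973.5 and 5034, and the part of cell size in the split was not tested.

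Naive and effector transcripts also met in single cells. Dapl1 went apart from Ccl5 in the MWA plus TIGIT library, where 18 of 46 members with Dapl1 had Ccl5 (39.1%, 25.1 to 54.6) against 76.9% of those without. In the MWA library the shares were 66.7% (52.1 to 79.2) and 75.6%. Il7r was seen in 34 of 51 members with Dapl1 in the MWA library (66.7%, 52.1 to 79.2) and in 40.7% of those without, and in 30 of 46 (65.2%, 49.8 to 78.6) and 57.3% in the MWA plus TIGIT library. These pairs share each cell's depth and are given as counts.

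Over the sum of Tcf7, Lef1 and Ccr7, levels differed by steps and the limit of 2 did not mark a break for every gene. In the MWA library Satb1 was 61.6, 105, 107, 129 and 169 CPM at sums of 0, 1, 2, 3 and 4 or more, and in the MWA plus TIGIT library 50.1, 105, 139, 213 and 271 CPM. Granzyme-low cells just outside the limit (126 and 108 cells, sum of 1) and members just inside it (87 and 67 cells, sum of 2) had Satb1 levels with intervals that overlap in both libraries. Il7r did not separate them in the MWA library, at 189 CPM outside and 168 CPM inside, and did in the MWA plus TIGIT library, at 128 and 283 CPM. S100a6 was lower at each higher sum in both libraries, from 3312 to 675 CPM and from 3170 to 637 CPM. Ccl5 was 4491 and 6202 CPM just outside and 2686 and 4198 CPM just inside. Ly6c2 was level over sums of 0 to 3 in the MWA library (1094 to 1283 CPM) and lower at each higher sum in the MWA plus TIGIT library (1571 to 624 CPM). Cells with a higher sum were also larger, with medians of 3695 UMIs at 0 and 4916 at 4 or more in the MWA library.

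**Figure D3:**
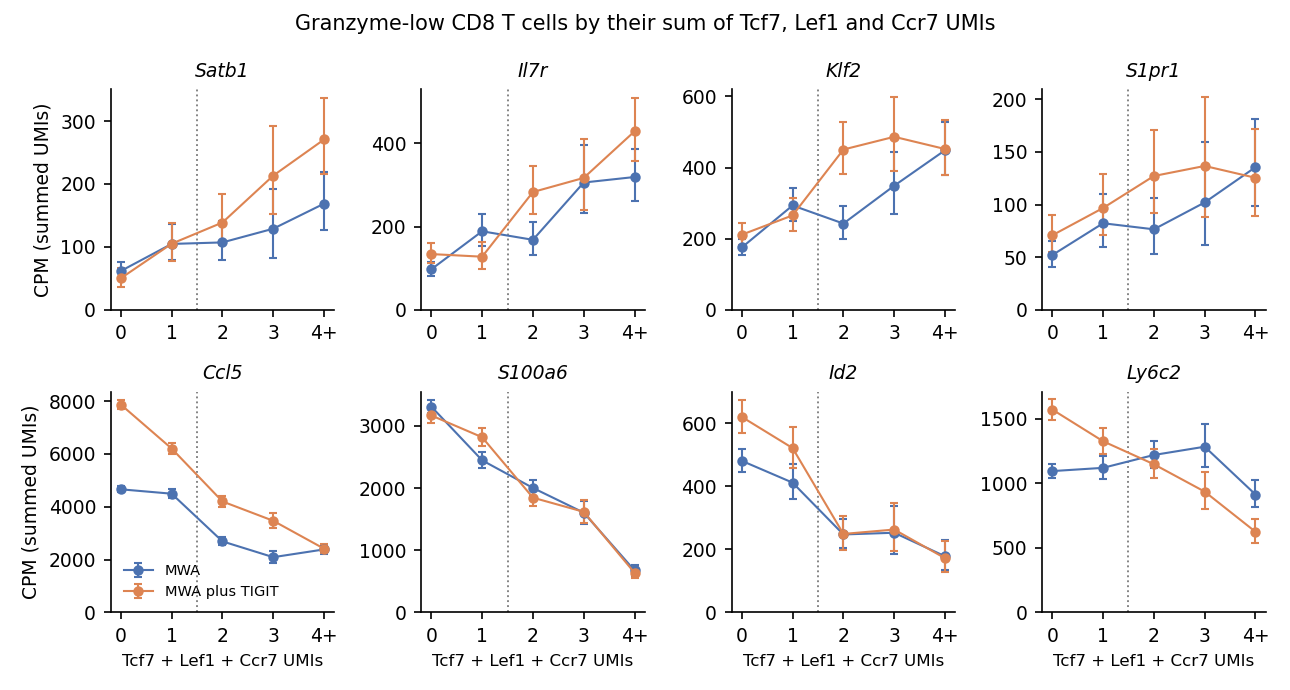
Level (CPM) of genes the rule did not use in granzyme-low CD8+ T cells, by the cell's sum of Tcf7, Lef1 and Ccr7 UMIs (0, 1, 2, 3, 4 or more) in each library, with exact Poisson 95% intervals and a dotted line at the limit for members. S100a6 is lower at each higher sum, from 3312 to 675 CPM in the MWA library, and Satb1 is higher at each higher sum, from 61.6 to 169 CPM in the same library.

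CD4+ T cells picked by similar gates, without Foxp3 (96 and 99 cells), shared part of this profile. Il7r stood at 403 and 486 CPM and S1pr1 at 230 and 230 CPM in them, above the CD8+ members. Dapl1 was much lower, at 17.3 and 2.26 CPM. Ccl5 stood at 732 and 1057 CPM and Ly6c2 at 299 and 282 CPM, both under the CD8+ members.

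Between the libraries, the ratios of single genes differed and no list of T cell genes had more than 2 genes called. Klf2, Satb1, Il7r and Jun had intervals above 0 and Ly6c2 had one below, and each lost this in at least 1 other setting, Jun in 1 of those that gave it a value, among the 26 and 20 members left when barcodes were thinned to 1000 UMIs before the rule. Of 2127 genes that had 20 UMIs in both libraries together and 50 CPM in either, 109 (5.12%) were at least 1.5 times higher and 46 (2.16%) at least 1.5 times lower in the MWA plus TIGIT library with an interval away from 1. The median log2 ratio of all 2127 genes was 0.05, and 57.2% lay above 0. Over all 2127 genes, 247 (11.6%) had an interval above 0 and 152 (7.15%) one below, the shares beside which the counts by list stand. Many of these intervals did not hold in smaller sets of members. Among the 99 and 87 members of at most 5000 UMIs, 37 of 69 named genes lost theirs and 6 changed sign. Among the 99 and 96 members with a sum of Tcf7, Lef1 and Ccr7 of at least 3, 26 of 70 lost theirs and 4 changed sign. Fewer UMIs also widen an interval, and the part of this was not tested. Log2 ratios below are of MWA plus TIGIT over MWA. TMM scaling, which trims the most extreme and most abundant genes, added -0.09 to every ratio and gave 63 genes higher and 67 lower.

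In the list of lymph node homing and exit, 7 of 10 genes were measured, 1 was called higher, 3 had intervals above 0 and none below, with a median of 0.40. Klf2, with 325 and 382 UMIs, had a log2 ratio of 0.46 (0.25 to 0.68). Among members of at most 5000 UMIs it was 0.16 (-0.13 to 0.46) and with a sum of at least 3 it was 0.17 (-0.10 to 0.45), so that the interval included 0 in both. Klf3, a relative of Klf2, was the gene called, at 0.68 (0.07 to 1.30), and turned to -0.25 in the same smaller members. Itga4, the alpha-4 integrin chain, had 0.44 (0.05 to 0.83). The intervals of S1pr1 (0.34, -0.07 to 0.75) and of the integrin chain Itgal (0.40, -0.11 to 0.92) included 0. For Ccr7 itself the ratio was -0.16 (-0.46 to 0.14).

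Transcription factors of naive and stem cells had 6 of 11 genes measured, with 1 called higher, 3 intervals above 0 and none below, and a median of 0.31. Satb1 was called, with 132 and 203 CPM and a ratio of 0.62 (0.28 to 0.96), but had 0.22 (-0.34 to 0.78) among members of at most 5000 UMIs. Foxp1, a quiescence factor of naive T cells, had 0.40 (0.09 to 0.72), and the lymphocyte factor Ets1 had 0.25 (0.00 to 0.50). Bach2, which restrains effector differentiation, had 13 and 26 UMIs and a ratio of 1.23 (0.22 to 2.31), under the minimum level. Of the genes of the rule, Tcf7 had 0.32 (0.06 to 0.58) and Lef1 0.07 (-0.24 to 0.38). The interval of Id3 (0.35, -0.25 to 0.95) included 0.

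Among genes of naive cells, 3 of 9 were measured, and Actn1, an actin crosslinker, was called at 0.67 (0.11 to 1.24). Dapl1 had 0.26 (-0.09 to 0.62) and Txk 0.15 (-0.20 to 0.49), so that neither differed beyond counting error. Ly6c1 is a near copy of Ly6c2 and had 1 and 0 UMIs, and how reads of these copies were divided is uncertain.

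Among cytokine receptors and survival genes, 12 of 16 were measured, 1 was called higher, 3 had intervals above 0 and none below, and the median was 0.18. Il7r had 240 and 286 UMIs and a ratio of 0.48 (0.23 to 0.74), which was 0.12 (-0.22 to 0.45) among members of at most 5000 UMIs and 0.30 (-0.01 to 0.61) with a sum of at least 3. The anti-apoptotic gene Mcl1 had 0.47 (0.18 to 0.76), and Il18r1, a receptor chain for interleukin 18, was called at 0.96 (0.38 to 1.56) on 41 and 68 UMIs. The anti-apoptotic gene Bcl2 had 0.15 (-0.08 to 0.38). After thinning to 1000 UMIs, Il7r was seen in 16.1% (11.2 to 22.2) and 28.2% (21.5 to 35.8) of members and Klf2 in 25.8% (19.7 to 32.7) and 40.5% (32.9 to 48.4). Within the members with at least 2 UMIs of antigen experience the ratios were 0.47 for Il7r, 0.55 for Klf2 and 0.67 for Satb1, each with an interval above 0. In the 16 and 24 members without, they were 0.05, -0.37 and 0.04, each with an interval that included 0. The difference between these cells was not tested.

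Quiescence genes had 7 of 9 measured, 1 called and 3 with intervals above 0, with a median of 0.32. Btg1, an antiproliferative gene, had 1014 and 1082 UMIs and a ratio of 0.32 (0.20 to 0.45). Slfn2, which maintains T cell quiescence, had 0.43 (0.09 to 0.77), and Tsc22d3, a glucocorticoid-induced regulator, was called at 0.60 (0.13 to 1.07). Immediate early genes, which answer within minutes to receptor signals and also to tissue dissociation, were higher as well, with intervals above 0 for 9 of 11 measured genes, below 0 for 1, 2 called higher and a median of 0.47. Jun was called at 0.75 (0.47 to 1.04), on 172 and 247 UMIs, as was Nr4a1, a gene of recent T cell receptor signals, at 0.71 (0.10 to 1.32). Fos had 0.47 (0.19 to 0.75), Egr1 0.56 (0.04 to 1.08) and the phosphatase gene Dusp1 0.49 (0.09 to 0.89), whereas Dusp2 had -0.26 (-0.50 to -0.01). Of 6 heat shock genes measured, none had an interval away from 0. The part of handling in these ratios was not tested.

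TIGIT and its partners were sparse in the members, from which the rule leaves out inhibitory receptor-positive cells. Low levels of inhibitory receptors here thus describe the choice. Tigit had 3 and 2 UMIs, and Pvrig, a receptor for the shared ligand CD112, had 3 and 1. The activating receptor Cd226, which competes with TIGIT for the ligand CD155, had 84 and 94 UMIs and a ratio of 0.39 (-0.05 to 0.83), and Cd96, a further receptor of CD155, had 37 and 44 UMIs and a ratio of 0.48 (-0.18 to 1.15). Their levels of 86.1 and 113 CPM for Cd226 and 37.9 and 52.9 CPM for Cd96 stood beside 164 and 198 CPM and 55.6 and 51.0 CPM in the other CD8+ T cells. None of the 8 other inhibitory receptors reached the minimum level, with Ctla4 at 35 and 41 UMIs and Cd160 at 43 and 40. Among costimulatory receptors, 6 of 7 were measured, 2 were called higher and 4 had intervals above 0, with a median of 0.51. Tnfrsf18 (GITR) had 0.80 (0.37 to 1.23) on 77 and 114 UMIs and 0.64 (-0.07 to 1.37) among members of at most 5000 UMIs, Cd27 had 0.54 (0.04 to 1.05) and the adhesion receptor Cd2 had 0.48 (0.20 to 0.77). Tnfrsf9 (4-1BB) had 1.23 (0.49 to 2.002), but 24 of its 48 UMIs in the MWA plus TIGIT library came from 1 cell, and without Ccr7 in the rule its ratio was -0.96.

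Antigen experience and effector genes of the members showed no common direction. Of 10 measured antigen experience genes, 1 had an interval above 0 and 3 below, none was called and the median was -0.06. Ly6c2 (chr15:75108158-75111970, minus strand) had 1100 and 757 UMIs, with no cell above 29, and a ratio of -0.31 (-0.44 to -0.17), which was -0.08 (-0.18 to 0.02) with a sum of at least 1. The small LIM-domain gene Crip1 had -0.24 (-0.35 to -0.13), S100a6 had -0.12 (-0.24 to -0.01) and S100a4 had 0.21 (0.04 to 0.38). Cd44 (-0.17, -0.77 to 0.42) and Cxcr3, the receptor of interferon-induced chemokines (0.04, -0.51 to 0.58), did not differ beyond counting error. Among 7 measured effector genes the median was -0.00, none was called and 2 intervals lay above 0, those of Ccl5 (0.46, 0.38 to 0.53) and the NK receptor chain Klrd1 (0.41, 0.15 to 0.67). Ccl5 was seen in 73.1% of members of the MWA library and 66.3% in the MWA plus TIGIT library while its level was higher in the second, so no order is read from the share. Nkg7 had -0.00 (-0.14 to 0.13) and the effector regulator Id2 -0.01 (-0.29 to 0.28).

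**Figure D4:**
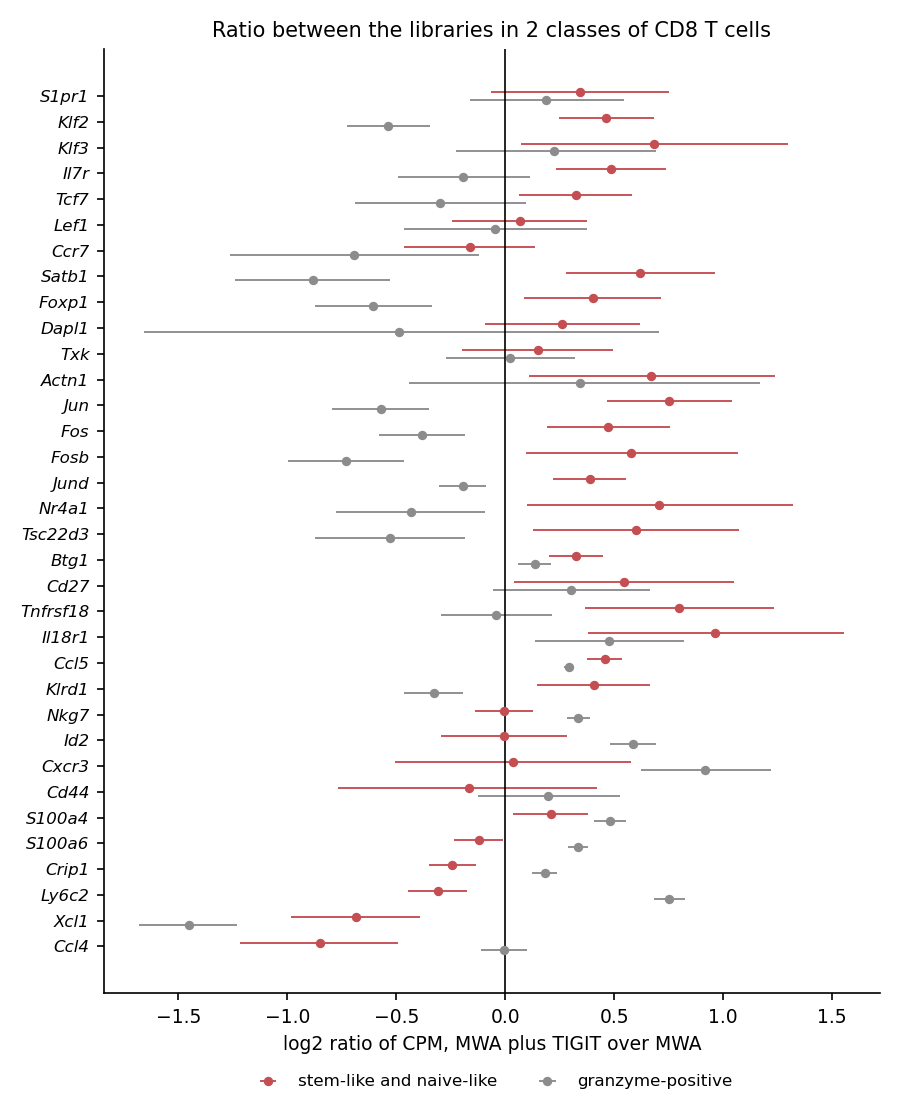
Log2 ratio of MWA plus TIGIT over MWA in members and in granzyme-positive CD8+ T cells for genes of the lists, with exact 95% counting intervals and a line at 0. Klf2 (0.46 in members, -0.54 in granzyme-positive cells) and Satb1 (0.62 and -0.88) lie on opposite sides of 0, as does Ly6c2 the other way (-0.31 and 0.75).

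Xcl1, a chemokine for cross-presenting dendritic cells that stem-like and recently activated CD8+ T cells make (chr1:164931644-164935527, minus strand), had 281 UMIs in 57 members of the MWA library and 149 UMIs in 37 members of the MWA plus TIGIT library. Its ratio was -0.68 (-0.98 to -0.39). A single cell held 116 of the 281 UMIs, and with at least 3 UMIs of Tcf7, Lef1 and Ccr7 required the ratio was 0.91 (0.38 to 1.46). Ccl4, an inflammatory chemokine (chr11:83662584-83664683, plus strand), had 201 and 95 UMIs and a ratio of -0.85 (-1.22 to -0.49), and 1 cell held 103 of the 201. Its ratio turned to 0.69 with at least 3 UMIs required and to 0.93 in members of at most 5000 UMIs. The levels of both chemokines thus rested on few cells. In the other CD8+ T cells Xcl1 stood at 567 and 527 CPM. Lymphotoxin beta (Ltb), the third cytokine gene measured with Ifng, had 0.23 (0.02 to 0.45), and Ifng had 0.03 (-0.46 to 0.52).

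Interferon genes outside the rule had 13 of 19 measured, none called, and 2 with intervals above 0, Ly6a at 0.48 (0.20 to 0.76) and Samhd1 at 0.51 (0.09 to 0.94). Of 15 genes of T cell receptor signalling, none was called and 2 had intervals above 0. These were the receptor constant segments Trbc1 (0.37, 0.18 to 0.56) and Trbc2 (0.15, 0.03 to 0.27), near copies whose reads may have been divided between them. The class I genes H2-D1 and H2-K1 had 0.28 and 0.15 with intervals above 0. Growth genes had 14 measured and none called, with Npm1 at -0.16 and Eif5a at -0.21, both below 0, and Odc1 at 0.31, above 0. Ribosomal protein genes took 46.2% of member UMIs in the MWA library and 44.8% in the MWA plus TIGIT library, and 36 of 79 measured had intervals below 0 and 9 above. Of 78 measured oxidative phosphorylation genes 16 lay below 0 and 2 above, and 1 was called higher. Tissue residence genes had 4 measured, none of them away from 0, with Cxcr6 at -0.47 (-1.004 to 0.06).

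The 10 genes with the highest ratios between the libraries were low in both. Sit1, an adaptor that dampens T cell receptor signals, led with 22 and 48 UMIs and a ratio of 1.36 (0.60 to 2.15). It was followed by Tnfrsf9, Gon4l, Rlf, Rnf125, Ppp1cb, Gm20186, Rexo1, Phc3 and Ripor2, with ratios of 1.23 down to 0.99 and at most 71 UMIs in a library. At the other end, Mt1, a metallothionein, had -2.42 with 172 of 238 UMIs of the MWA library in 1 cell. Cst3 had -2.06, with 375 of 622 UMIs in the 2 Fscn1 and Ccl22 cells, and Bcl2a1d -1.04, with 48 of 89 UMIs in them. The class II genes H2-Eb1, Cd74, H2-Ab1 and H2-Aa had ratios of -1.32 to -1.15, and 1 cell held 43 to 75 of their 103 to 287 UMIs. Of 9 dendritic cell markers all 4 measured were called lower, and the summed level was 742 and 290 CPM in members against 554 and 502 CPM in other CD8+ T cells. Hist1h2ap had -1.16, the retinoic acid receptor gene Rara -1.05 and the long noncoding gene Gm10076 -1.06 on 2058 and 841 UMIs, the last seen in 186 of 186 and 157 of 163 members.

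Markers of other cells that were higher in the MWA plus TIGIT library included Ikzf2, a factor of regulatory T cells that some CD8+ T cells also express, at 0.87 (0.31 to 1.44), and the immunoglobulin gene Ighm at 0.78 (0.27 to 1.30). The regulatory T cell list summed to 56.3 and 109 CPM, with Foxp3 at 1 and 8 UMIs, and the gamma-delta list to 22.5 and 45.7 CPM. B cell markers summed to 88.1 and 108 CPM, with Cd79a at 4 and 0 UMIs, the 0 allowing up to 3.61 CPM. Macrophage markers Lyz2 (0.33, 0.12 to 0.55) and Apoe (0.25, 0.01 to 0.49) were also higher, and 90 of the 365 Lyz2 UMIs of the MWA plus TIGIT library came from 1 cell. NK cell markers summed to 16.4 and 28.8 CPM, CD4+ T cell markers to 22.5 and 22.8, neutrophil markers to 69.7 and 39.7 and tumor or stromal markers to 20.5 and 26.4, and red cell markers to 1.02 and 0 CPM. The part of these cells in the ratios was not tested. Without the members with clear transcripts of another lineage, 113 genes were called higher and 48 lower. Without those marked by doublet scores, 104 were called higher and 46 lower, and Lyz2 turned to -0.12. Leaving out every member with 2 or more UMIs of other cell types left 13 and 6 members, with 12 genes called higher and 7 lower.

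Variable segments of the T cell receptor were read in few cells of these 3′ libraries. A variable segment of the beta chain (Trbv) was found in 31 of 186 members (16.7%, 11.6 to 22.8) and 32 of 163 members (19.6%, 13.8 to 26.6), spread over 16 segments in each library. The leading segment was Trbv16 in the MWA library, in 8 of the 31 cells, and Trbv13-1 in the MWA plus TIGIT library, in 4 of 32. Alpha chain segments (Trav) were found in 40 and 31 members over 25 and 18 segments. The lead was held by Trav16n in 6 cells of the MWA library and by Trav16 in 8 cells of the MWA plus TIGIT library. The spread over segments is a count of cells and no measure of clones, since no junction was read.

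Trav16 set the members apart from the other classes of the MWA plus TIGIT library. A Trav16 UMI was found in 8 of 163 members (4.91%, 2.14 to 9.44), and in 50 of 355 granzyme-low cells under the limit (14.1%), 32 of 206 inhibitory receptor-positive cells (15.5%), 229 of 724 granzyme-positive cells (31.6%), 92 of 285 cycling cells (32.3%) and 38 of 106 interferon cells (35.8%). The difference between members and granzyme-positive cells was -26.7 points (-31.2 to -21.1). In the MWA library it was 0.306 points (-1.68 to 3.44), with Trav16 in 3 of 186 members and 6 of 459 granzyme-positive cells. In the CD4+ T cells picked by similar gates, without Foxp3, a Trav16 UMI was found in 1 of 96 and 0 of 99, the second of which allows a share of up to 3.03%. Members were deeper than granzyme-positive cells, with medians of 4764 and 3431 UMIs in the MWA plus TIGIT library.

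The 3 sequences below show why the Trav16 counts are uncertain between family members. They are the last 300 bases of the genes on the plus strand, read from GRCm38 at the positions of the GENCODE vM21 annotation, at chr14:53743406-53743705 for Trav16, chr14:53351322-53351621 for Trav16n and chr14:53047522-53047821 for Trav16d-dv11. Capitals mark the 6 positions at which the 3 differ.
Trav16: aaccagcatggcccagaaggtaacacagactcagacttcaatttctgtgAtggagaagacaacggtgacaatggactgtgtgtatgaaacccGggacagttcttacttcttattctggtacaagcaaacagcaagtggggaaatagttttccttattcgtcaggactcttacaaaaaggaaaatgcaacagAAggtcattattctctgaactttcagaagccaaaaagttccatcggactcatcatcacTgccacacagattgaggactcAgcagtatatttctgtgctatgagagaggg
Trav16n: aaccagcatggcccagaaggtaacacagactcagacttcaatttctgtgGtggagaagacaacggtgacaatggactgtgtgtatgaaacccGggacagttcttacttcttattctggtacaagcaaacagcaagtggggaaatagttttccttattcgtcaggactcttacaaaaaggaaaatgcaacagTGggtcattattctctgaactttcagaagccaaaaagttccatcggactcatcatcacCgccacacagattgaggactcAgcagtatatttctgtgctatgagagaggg
Trav16d-dv11: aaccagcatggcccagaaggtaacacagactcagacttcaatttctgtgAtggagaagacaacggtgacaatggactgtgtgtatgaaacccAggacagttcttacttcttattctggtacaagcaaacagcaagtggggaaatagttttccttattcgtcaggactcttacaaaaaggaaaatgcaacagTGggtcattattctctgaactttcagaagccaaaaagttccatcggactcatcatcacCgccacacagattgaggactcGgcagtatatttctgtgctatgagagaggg
Trav16 and Trav16n differed at 4 of 300 positions, Trav16 and Trav16d-dv11 at 5, and Trav16n and Trav16d-dv11 at 3 (98.7%, 98.3% and 99% identical). A read away from the capitals fits all 3 genes. Trav16n was found in 6 of 186 members of the MWA library and 1 of 163 of the MWA plus TIGIT library, and Trav16d-dv11 in 1 and 0, the 0 allowing up to 1.84%. In the MWA library Trav16n was found in 3.23% of members, 17.2% of inhibitory receptor-positive cells and 13.7% of cycling cells. The other classes there stood nearer the members, with 4.58% of granzyme-positive, 3.87% of granzyme-low and 2.44% of interferon cells.

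**Figure D5:**
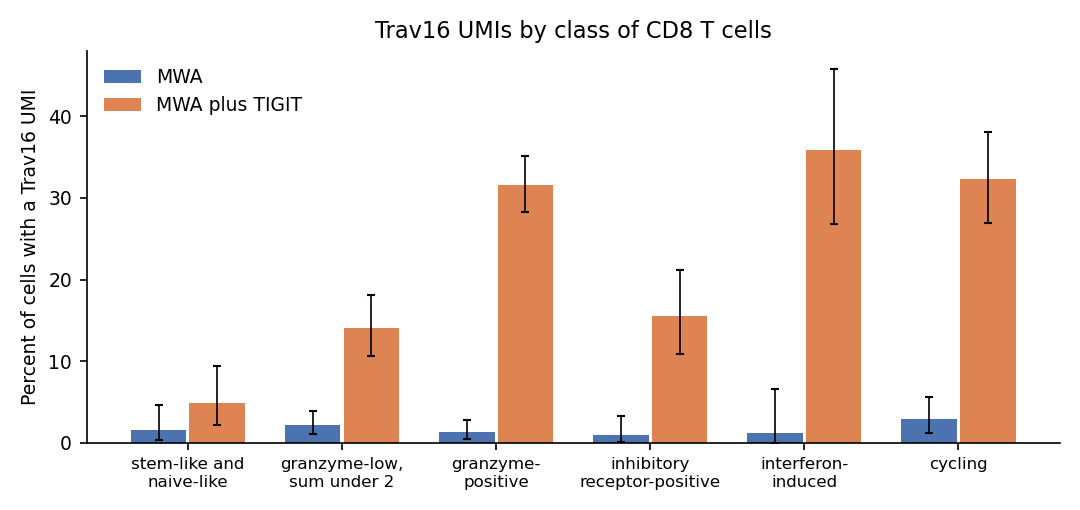
Share of cells with a Trav16 UMI (percent, vertical axis) in members and the other CD8+ classes, in both libraries, with exact binomial 95% intervals. In the MWA plus TIGIT library members stand at 4.91% and granzyme-positive cells at 31.6%, while no class of the MWA library exceeds 2.88% for Trav16. The near copy Trav16n is not shown, and reached 17.2% of inhibitory receptor-positive cells of the MWA library.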

How the data were processed

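Single-cell 3′ libraries of CD45+ cells, 1 per group, were processed by the authors with Cell Ranger (6.1.1 in the submitters' processing notes, 4.0.0 in the matrix headers) and mm10, and the deposited values are raw UMI counts of 32285 genes per barcode, with no normalization and no cell annotation. The authors' limit of 5000 UMIs per cell had not been applied to them, since they held barcodes of up to 64662 and 44243 UMIs, and whether their doublet removal had been is not given in the sources used here. The libraries held 10217 and 10190 barcodes, 66152465 and 78751205 UMIs, and medians of 5627 and 6586 UMIs per barcode. Gene positions were taken from GENCODE vM21 on GRCm38.

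The members, gene lists and tests were chosen with earlier results of these data known. Counts of the members of a library were summed and divided by the sum over all genes to give CPM, with exact Poisson intervals. A ratio of libraries or classes carries the exact conditional binomial interval of its UMIs and a share the Clopper-Pearson interval, all at 95%. These cover counting error only, and treat each UMI as independent although cells share them, so that a gene held by few cells varies more than its interval. A floor is 3 counts. Genes were named when they were in the rule, in 1 of 29 gene lists (10 of them markers of other cells), among the 10 highest or lowest between the libraries, or among the 15 highest or lowest of the smaller ratio against the other CD8+ T cells. Cmah, A930005H10Rik and the other genes at the ends of a ranking were thus named for their values, some listed genes are not reported here and are left out of the counts by list, and the Trav16 family was singled out after its values were seen. Doublets were not removed in the main result. As an alternative, the barcodes with the highest Scrublet scores, 0.8% per 1000 barcodes, were left out (835 and 831, with medians of 9661 and 11224 UMIs). Other alternatives were the limit of the sum, its genes, a limit of 5000 UMIs, thinning, leaving out Trav16 cells, shared barcodes or cells with transcripts of other cell types, TMM scaling, another total and no minimum CPM. The steps were checked on simulated counts. Python 3.11.15 with numpy 2.4.6, scipy 1.17.1, pandas 2.3.3, matplotlib 3.10.9 and scanpy 1.11.5 was used, and R 4.3.3 with edgeR 4.0.16 for the TMM factors only.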

Additional observations from a re-analysis of the deposited data

Results flagged for a closer look

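Of 150 genes of the lists and of the rule measured in members, 20 had a ratio of MWA plus TIGIT over MWA on 1 side of 0 in members and on the other side in granzyme-positive CD8+ T cells of the same libraries, each with an interval away from 0 (13.3%, against 38 of all 2127 genes measured, 1.79%). The lists were chosen with results of these data known. In 17 the members were higher and the granzyme-positive cells lower. The difference between the cells was not tested, since each group is 1 library. Each value below is the log2 ratio in members minus that in granzyme-positive cells.

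Exit and quiescence genes were on this list. The value was 1.503 for Satb1, which had 83.5 and 45.3 CPM in granzyme-positive cells and a ratio there of -0.88 (-1.24 to -0.53). It was 1.00 for Klf2, 1.01 for Foxp1 and 1.13 for Tsc22d3. Granzyme-positive cells held 252 and 174 CPM of Klf2, so that the distance between members and granzyme-positive cells was wider in the MWA plus TIGIT library.

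Immediate early genes were the largest group, with 1.32 for Jun, 1.31 for Fosb, 0.85 for Fos, 0.58 for Jund, 0.94 for Egr1 and 1.14 for Nr4a1. The values of Ikzf2 (2.49) and Tnfrsf9 (1.74) rest on low counts in members, with 24 of 48 Tnfrsf9 UMIs of the MWA plus TIGIT library in 1 cell. Receptor chains gave 0.85 for Trbc1, 0.26 for Trbc2 and 0.73 for Klrd1, and the growth gene Odc1 and the macrophage gene Lyz2 gave 0.69 and 0.71.

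The 3 genes of the other direction belong to antigen-experienced cells. Ly6c2 had -1.06, with 2309 and 6287 UMIs in granzyme-positive cells and a ratio there of 0.75 (0.68 to 0.82). S100a6 had -0.46 and Crip1 -0.42. Without the Trav16 cells among the granzyme-positive cells, an alternative chosen after seeing the data, 16 of the 20 genes still had intervals on opposite sides. Trbc1, Klrd1, Nr4a1 and Tsc22d3 did not. The ratio of Ly6c2 in granzyme-positive cells was then 0.58 and that of Satb1 -0.46. The member side did not hold in every choice of members. Members of at most 5000 UMIs were 99 of 186 and 87 of 163, with fewer UMIs and so wider intervals. The part of cell size was not tested. Among members of at most 5000 UMIs the intervals of Satb1 (0.22), Klf2 (0.16), Foxp1 (0.27) and Tsc22d3 (0.23) included 0. So did those of Fosb, Jund, Odc1, Lyz2, S100a6 and Crip1, and Trbc2 (-0.04) and Klrd1 (-0.05) changed sign.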

How the results depend on the processing

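No paired analysis was possible because there is 1 library per group, and no library could be left out. The cause of each change below was not tested. With a sum of Tcf7, Lef1 and Ccr7 of at least 1, the member shares were 18.5% and 14.7%, 59 genes were called higher and 26 lower, 5 genes were at least 2 times above the other CD8+ T cells, and the thinned experience shares were 67.7% and 71.5%. With at least 3 they were 5.88% and 5.22%, with 16 genes above the other CD8+ T cells and a thinned experience share of 51.5% in the MWA library. Without Ccr7 the shares were 7.89% and 7.12%. Without barcodes over 5000 UMIs the share in the MWA plus TIGIT library was 7.47%, with 16 genes above the other CD8+ T cells and 77.0% of members experienced. Thinning before the rule left 26 and 20 members (2.70% and 1.70%, and a difference of -1.004 points as a share of granzyme-low cells), 62 genes called higher and 18 above the other CD8+ T cells, a thinned experience share of 70.0% in the MWA plus TIGIT library and a Trbv UMI in 11.5% and 30.0% of members. Without Trav16 cells the share in the MWA plus TIGIT library was 11.2% and the difference turned to 0.0937 points. The interval of the difference in shares of CD8+ T cells included 0 here, with at least 3, without Ccr7 and without barcodes over 5000 UMIs. It also did after thinning (-0.99, -2.39 to 0.31) and without cells holding markers of other cell types. It stayed below 0 with at least 1, by doublet scores, and without shared barcodes or cells of another lineage.

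Leaving out every member with 2 or more UMIs of other cell types left 13 and 6 members, so that its values carry little (15.5% and 6.74%, a difference of -8.73 points and of -17.9 points as a share of granzyme-low cells, 12 genes higher and 7 lower, 1 above and 19 below the other CD8+ T cells, thinned experience shares of 69.2% and 66.7%, and a Trbv UMI in 23.1% in the MWA library). TMM scaling called 63 genes higher, a total without ribosomal and mitochondrial genes 178 higher and 103 lower, and no minimum CPM 265 higher and 118 lower. Between 104 and 113 genes were called higher and 42 to 48 lower when doublet scores, shared barcodes, Trav16 cells or members with another lineage's transcripts (the last chosen after seeing the data) were left out.

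Of 70 named genes with an interval away from 0, the log2 ratio changed its sign in 3 with a sum of at least 1 (S100a4 -0.016, S100a6 0.059, Odc1 -0.015), in 4 with at least 3 (Xcl1 0.91, S100a4 -0.11, Lyz2 -0.29, Ccl4 0.69) and in 2 without Ccr7 (Ikzf2 -0.15, Tnfrsf9 -0.96). It did so in Lyz2 (-0.12) by doublet scores and in Bcl2a1d (0.016) without members of another lineage. In members of at most 5000 UMIs 6 of 69 changed sign, Klf3 -0.25, Trbc2 -0.038, Klrd1 -0.052, Npm1 0.0061, Ccl4 0.93 and H2-Aa 0.43. Among the few members left by thinning, 15 of 45 did so, S100a4 -0.35, Trbc1 -0.56, Foxp1 -0.035, Zfp36 -0.74, Klf2 -0.0085, Lyz2 -0.67, Npm1 0.011, Slfn2 -0.13, Ccl4 0.61, Odc1 -0.57, Fos -0.94, Crip1 0.10, Ly6a -0.32, Ly6c2 0.10 and Dusp1 -2.89. In the 13 and 6 members without other markers, 9 of 20 did so, S100a4 -0.41, Jund -0.63, Btg1 -0.035, Npm1 0.41, Eif5a 0.027, Ccl5 -1.44, Crip1 0.063, Il7r -0.41 and Ly6c2 1.05. None of the 70 changed sign without Trav16 cells or shared barcodes, with TMM scaling, the other total or the mean of the cells' own shares, or among experienced members only (chosen after seeing the data), although 8, 0, 14, 7 and 10 of them lost their interval away from 0 in these settings, the mean having none. More lost it under the other choices of members, 24 of 70 with a sum of at least 1, 26 with at least 3, 22 without Ccr7, 37 of 69 among members of at most 5000 UMIs, 16 of 45 after thinning and 8 of 20 without other markers, and 5 by doublet scores and 8 without members of another lineage. Depth limits genes under about 20 UMIs, among them Tigit, Pvrig and Cxcr5.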
